A study of Mus musculus with 32 samples.

Results

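The genes described here are the nuclear genes for the subunits of the mitochondrial respiratory chain and of ATP synthase. They are the protein-coding genes of GENCODE M21 whose symbols begin with Nduf, Uqcr, Cox4, Cox5, Cox6, Cox7, Cox8 or Atp5, together with Sdha, Sdhb, Sdhc and Sdhd, leaving out the Ndufaf assembly factors, Ndufa4l2 and Cox4i2. The rule gave 84 of the 55401 genes listed, with 36 in complex I, 4 in complex II, 8 in complex III, 18 in complex IV and 18 in complex V. The 84 identifiers carry 83 symbols, because Atp5o stands under 2 overlapping identifiers on the minus strand of chromosome 16. The rule used symbols only and no measured value. Ndufa4, first assigned to complex I, was counted with complex IV.

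RNA was sequenced from 32 libraries in 16 groups of 2. OG2X129 mouse embryonic fibroblasts were put through chemical reprogramming in a medium that holds VPA, CHIR99021, 616452, Parnate, Forskolin, AM580, EPZ004777 and vitamin C, and every reprogramming group shares that medium. The groups add CD (CD3254, an agonist of retinoid X receptors) or DMSO, overexpress Rxra (Rxra OE) beside a control (CTR), or carry a hairpin against Exosc3 (shE3), a subunit of the RNA exosome, beside a control hairpin (shCTR). In a decay experiment, cultures with CD or DMSO received actinomycin D, which blocks transcription, for 0, 4 or 8 h. The last table holds pluripotent lines obtained with CD or DMSO (CD iPSC, DMSO iPSC; the DMSP of the sample titles is taken for DMSO), R1 embryonic stem cells and embryonic fibroblasts (MEF). CTR is labelled WT OE and shCTR WT shRNA, and the MEF libraries also carry the label WT shRNA and reprogramming as treatment. The labels do not say whether the 2 libraries of a group come from separate cultures, so each p-value measures only the spread between these samples. In these bulk samples, fewer cells of a type and less RNA per cell cannot be told apart.

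The electron transport chain passes electrons from NADH (through complex I) and succinate (through complex II) by way of ubiquinone, complex III and cytochrome c to oxygen at complex IV. Complexes I, III and IV pump protons across the inner mitochondrial membrane, and ATP synthase, complex V, lets them flow back to make ATP. Most subunits are encoded in the nucleus and the rest in mitochondrial DNA. Fibroblasts rely on respiration more than pluripotent stem cells, which are known for high glycolysis, and a few complex IV subunits have alternative forms that are known from muscle or testis.

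In the tables of CD and of Rxra OE, mitochondrially encoded RNA took 50.9 to 62 percent of all TPM, against 11.8 to 15.5 percent in the table of shE3 and 7.46 to 17.4 percent in the table of pluripotent lines. The nuclear subunit genes together took 0.553 to 2.18 percent across all tables. The depth of the TPM tables is unknown, and the actinomycin D table holds 15382821 to 24186485 recovered reads per library. Fibroblast markers (9 genes) summed to 16975 and 17701 TPM in MEF and to at most 239.52 TPM in the pluripotent lines, where 8 pluripotency markers summed to 6161.4 to 7458.9 TPM against 0.49 and 0.70 TPM in MEF. In the reprogramming cultures of the CD, Rxra OE and shE3 tables fibroblast markers stayed between 577.91 and 3147.8 TPM and pluripotency markers between 0.79 and 5.36 TPM. Most subunit genes were well expressed: 77 of 84 had a mean above 10 TPM in each of the CD, Rxra OE and shE3 tables and 79 did so in the table of pluripotent lines.

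The promoters of these genes are known for sites of NRF1, of ETS factors such as GABP and of YY1, so 300-base windows around the annotated starts were searched for such motifs. The windows come from RefSeq on GRCm38.p6, and 67 of the 83 symbols had at least 1. On either strand, the NRF1 motif (its consensus, with T or C at the variable position) was found for 10 of 67 symbols, 14.9 percent, against 3.54 percent of 17492 protein-coding genes and 2.56 percent of all 27025 genes with a window. CCGGAAG (ETS) was found for 16, 23.9 percent against 12.95 and 9.93 percent, and AAGATGGC (YY1) for 9, 13.4 percent against 3.57 and 3.19 percent; none of these motifs contains another. A match describes letters in a window, not a bound site. 5 windows are printed, each 5′ to 3′ in the direction of the gene with matches to the motifs in capitals. Uqcrc1 and Sdhd are shown because both were called higher in CD, Rxra OE and all 3 pluripotent lines, Cox6b1 and Cox6b2 because they are alternative forms of the same subunit, and Cox7a1 because it is the muscle form that rose in the same comparisons as Uqcrc1 and Sdhd. They lie at chr9:108936398-108936697 (plus strand, Uqcrc1), chr9:50603800-50604099 (minus, Sdhd), chr7:30626065-30626364 (minus, Cox6b1), chr7:4753045-4753344 (minus, Cox6b2) and chr7:30183921-30184220 (plus, Cox7a1).
Uqcrc1: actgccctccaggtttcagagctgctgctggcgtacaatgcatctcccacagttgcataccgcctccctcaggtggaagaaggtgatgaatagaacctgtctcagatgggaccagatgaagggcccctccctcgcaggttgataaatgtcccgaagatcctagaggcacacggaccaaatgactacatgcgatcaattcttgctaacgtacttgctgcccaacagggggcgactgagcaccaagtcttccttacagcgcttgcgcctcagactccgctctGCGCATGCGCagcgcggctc
Sdhd: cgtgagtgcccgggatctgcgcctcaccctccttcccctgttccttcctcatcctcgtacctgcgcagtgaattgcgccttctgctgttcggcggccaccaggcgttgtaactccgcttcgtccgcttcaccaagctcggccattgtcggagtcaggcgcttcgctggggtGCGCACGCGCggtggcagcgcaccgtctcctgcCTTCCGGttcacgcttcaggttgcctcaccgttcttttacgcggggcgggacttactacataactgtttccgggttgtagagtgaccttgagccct
Cox6b1: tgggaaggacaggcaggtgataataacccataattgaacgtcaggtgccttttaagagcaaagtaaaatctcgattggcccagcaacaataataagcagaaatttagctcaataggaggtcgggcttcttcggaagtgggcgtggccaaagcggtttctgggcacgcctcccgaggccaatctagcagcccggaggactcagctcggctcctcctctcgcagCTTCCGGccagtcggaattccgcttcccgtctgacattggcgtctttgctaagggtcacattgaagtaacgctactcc
Cox6b2: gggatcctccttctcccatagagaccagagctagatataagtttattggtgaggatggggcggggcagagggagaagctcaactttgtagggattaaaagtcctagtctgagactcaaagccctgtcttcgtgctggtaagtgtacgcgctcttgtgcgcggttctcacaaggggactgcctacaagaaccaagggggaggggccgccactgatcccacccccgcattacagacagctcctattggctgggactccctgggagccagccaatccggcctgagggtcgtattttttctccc
Cox7a1: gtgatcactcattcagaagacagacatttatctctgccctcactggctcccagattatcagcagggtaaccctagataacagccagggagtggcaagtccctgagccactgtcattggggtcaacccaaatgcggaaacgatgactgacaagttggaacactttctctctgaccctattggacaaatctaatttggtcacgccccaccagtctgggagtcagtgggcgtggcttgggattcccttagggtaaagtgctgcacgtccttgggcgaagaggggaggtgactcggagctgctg
The Uqcrc1 window holds an NRF1 match, the Sdhd window an NRF1 and an ETS match and the Cox6b1 window an ETS match. The searched letters were not found in the Cox6b2 and Cox7a1 windows.

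With CD, most subunit genes of complexes I, III, IV and V were called higher in TPM as deposited. Of the 4 genes of complex II, succinate dehydrogenase, 1 was. Relative to the median gene the counts were smaller in complexes I, III, IV and V. A gene was tested where 2 libraries reached a value of 1, and was called by limma on log2(TPM + 1) at a Benjamini-Hochberg adjusted p under 0.05 over all genes tested. Of 79 members tested, 62 were called higher and 1 lower, beside 43.1 percent of all genes called higher and 19.5 percent called lower. The members' median log2 change was 0.36, against 0.18 for all genes. Relative to the median gene, 39 members were higher and 10 lower (all genes 30.5 and 31.1 percent). By complex, the counts higher as deposited were 24 of 36 in complex I, 1 of 4 in II, 8 of 8 in III, 13 of 14 in IV and 16 of 17 in V, and relative to the median gene they were 17, 1, 6, 7 and 8. Fibroblast markers summed to 1415.8 and 1488.8 TPM in DMSO and 934 and 965 TPM in CD, and 8 XEN-like and epithelial markers to 240 and 272 TPM against 1050.4 and 1064.8 TPM; the part of this change in cell makeup was not tested.

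In complex I, Ndufs6, a zinc-binding accessory subunit, stood at 37.0 and 42.8 TPM in DMSO and 73.8 and 72.0 TPM in CD, a log2 change of 0.86 ± 0.08 (SE, adjusted p = 0.000261 by limma). Ndufs4, an accessory subunit whose loss is known to cause Leigh-like disease in mice, went from 21.04 and 18.4 TPM to 37.7 and 33.5 TPM (log2 0.82 ± 0.09). Both groups of libraries stood apart for both genes. Ndufb10, a membrane-arm subunit, was the member called lower, with 56.9 and 59.7 TPM in DMSO and 48.2 and 50.8 TPM in CD (log2 -0.23 ± 0.06, adjusted p = 0.0154). That call was lost without DMSO replicate 2 or without CD replicate 1, which leaves 0 members called lower.

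Succinate dehydrogenase did not move as a unit. Sdhd, a membrane anchor, read 56.98 and 58.6 TPM in DMSO and 86.5 and 87.1 TPM in CD (log2 0.58 ± 0.05). Sdha, the flavoprotein that oxidises succinate, read 46.5 and 50.4 TPM against 51.8 and 51.1 TPM, and Sdhc read 27.8 and 32.0 TPM against 28.02 and 29.3 TPM, neither called as deposited. After rescaling to the median gene, 2 of the 4 members were called lower.

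In complex III the core protein Uqcrc1 stood at 85.2 and 90.6 TPM in DMSO and at 129 TPM in each CD library (log2 0.55 ± 0.06), and Uqcrq, a small subunit, rose by 0.70 ± 0.08. In complex IV Cox7c went from 136 and 141 TPM to 226 and 234 TPM (log2 0.72 ± 0.05). Cox7a1, the muscle and heart form of its subunit, was low and rose from 0.87 and 1.72 TPM to 4.01 and 3.68 TPM (log2 1.10 ± 0.18, adjusted p = 0.00235). Beside it, 11 striated muscle markers summed to 13.4 and 13.0 TPM in DMSO and 72.5 and 75.8 TPM in CD. Most of that sum was Myl7, with 66.6 and 68.7 TPM in CD. In each library 2 or 3 of the 11 markers were listed at 0, with Myog and Ckm at 0 in all 4 libraries. The part of muscle-type cells in the Cox7a1 result was not tested. The testis form Cox6b2 overlapped between the groups, with 56.1 and 60.2 TPM against 60.0 and 57.4 TPM. In complex V Atp5g2, which encodes the c-ring subunit, went from 120 and 123 TPM to 196 and 193 TPM (log2 0.68 ± 0.05). The abundant Cox4i1 and Atp5b, with log2 changes of 0.18 ± 0.05 and 0.16 ± 0.05, were called higher as deposited but had a change below 0 relative to the median gene (-0.04 and -0.05, not called), and both calls were lost without DMSO replicate 1, CD replicate 1 or CD replicate 2.

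With Rxra overexpression, nearly all subunit genes were higher as deposited, at a level close to the shift of the median gene. Of 79 members tested, 73 were called higher and 0 lower by limma, with 74 higher and 0 lower at an unadjusted p under 0.05, beside 68.6 percent of all genes called higher and 14.0 percent lower. The members' median log2 change was 0.77 and that of all genes 0.62. Relative to the median gene, 25 members were higher and 12 lower (all genes 35.1 and 35.5 percent), with a member median of 0.04. Fibroblast markers summed to 1367.5 and 1523.4 TPM in CTR and 581 and 578 TPM in Rxra OE, and XEN-like and epithelial markers to 128 and 151 TPM against 1146.1 and 1073.1 TPM, whose part was not tested. Ndufs6 again led complex I, with 20.9 and 32.4 TPM in CTR and 87.9 and 78.1 TPM in Rxra OE, a log2 change of 1.63 ± 0.20 as deposited and 0.90 after rescaling to the median gene (adjusted p = 0.00356). Sdhd went from 47.5 and 50.4 TPM to 103 and 102 TPM, with log2 changes of 1.05 ± 0.09 as deposited and 0.31 once rescaled. Atp5g2 read 94.8 and 114 TPM in CTR and 223 and 231 TPM in Rxra OE, and its rise passed in both scalings (log2 1.12 ± 0.12 and 0.37). Cox7a1 went from 0.62 and 1.83 TPM to 4.69 and 3.55 TPM (log2 1.25 ± 0.26 as deposited, 0.76 relative to the median gene), while striated muscle markers summed to 9.12 and 11.2 TPM in CTR and 82.7 and 73.8 TPM in Rxra OE, of which Myl7 made 61.7 and 53.5 TPM, with Myog listed at 0 throughout; their part was not tested. Ndufa12, with 15.6 and 16.9 TPM in CTR and a wide 25.9 and 69.7 TPM in Rxra OE, was called as deposited and was not called relative to the median gene. Cox4i1 and Atp5b, log2 0.58 ± 0.13 and 0.73 ± 0.11 as deposited, changed by -0.17 and -0.02 relative to the median gene, where neither was called; without Rxra OE replicate 1 Cox4i1 was not called as deposited.

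**Figure D1:**
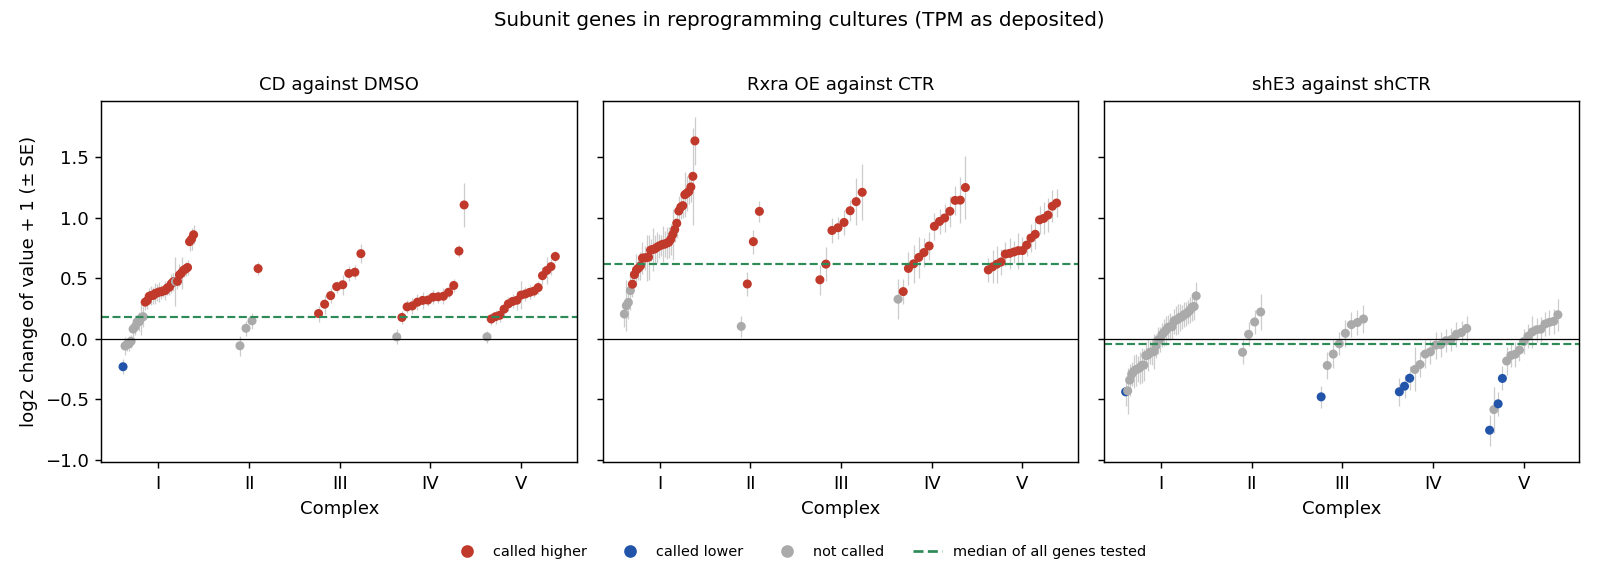
Log2 change of TPM + 1 (vertical axis) for each tested subunit gene, sorted within complexes I to V, in CD against DMSO, Rxra OE against CTR and shE3 against shCTR; points are genes, bars are the SE, and the dashed line is the median of all genes tested. In CD 62 points are called higher and 1 lower, in Rxra OE the points lie around a dashed line at 0.62, and in shE3 8 points are called lower.

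Other mitochondrial gene groups were counted in the same fits, as deposited and again after rescaling (given as relative). Over all genes 43.1 percent were called higher in CD and 68.6 percent in Rxra OE, and 30.5 and 35.1 percent relative, and the share of assembly factors called higher in CD was close to that of all genes. In CD, 20 of 46 assembly factors were called higher and 2 lower (11 and 8 relative), 9 of 17 enzymes of the TCA cycle and pyruvate dehydrogenase higher and 1 lower (6 and 3), and 9 of 15 regulators of mitochondrial biogenesis higher and 0 lower (4 and 1). Idh2, the mitochondrial NADP isocitrate dehydrogenase, went from 22.7 ± 0.79 to 55.6 ± 1.31 TPM (SD, n = 2), and Tfam, which packages mitochondrial DNA, from 5.15 ± 0.41 to 7.91 ± 0.31 TPM. In Rxra OE the counts higher and lower were 40 and 1 of 46 assembly factors (13 and 13 relative). They were 14 and 1 of 17 TCA cycle enzymes (5 and 8) and 14 and 0 of 14 biogenesis regulators (7 and 2). Idh2 went from 14.8 ± 1.83 to 82.4 ± 5.69 TPM there, and Ppargc1a, a coactivator of mitochondrial genes, from 0.76 ± 0.15 to 3.48 ± 0.26 TPM. Of the mitochondrially encoded mRNAs tested by limma, more were called lower than higher, unlike the nuclear subunits. Over all genes 19.5 percent were called lower in CD and 14.0 percent in Rxra OE, and 31.1 and 35.5 percent relative. Mitochondrially encoded RNA took 57.1 and 55.4 percent of TPM in DMSO, 53.3 and 52.9 in CD, 62.0 and 59.3 in CTR and 50.9 in each Rxra OE library. TPM has a fixed total, so the 2 directions are not independent, and the 2 sets were not tested against each other. Of 9 tested in CD, 1 was higher and 3 lower (1 and 8 relative). Of 9 in Rxra OE, 0 were higher and 4 lower (0 and 8 relative). Of the 13 such mRNAs, 4 were listed at 0 in each library of both comparisons. In the libraries of actinomycin D, MEF and the pluripotent lines none was listed at 0. How these mRNAs were quantified was not tested, so the counts cover only those with values.

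With knockdown of Exosc3, the subunit genes did not stand out from all genes: 8 fell, a share below that of all genes called lower, and the members' median was close to that of all genes. Of 79 members, 0 were called higher and 8 lower by limma, with 3 higher and 13 lower at an unadjusted p under 0.05, beside 4.85 percent of all genes called higher and 12.3 percent lower. The members' median log2 change was -0.02 and that of all genes -0.04, and the summed members read 11250 and 12915 TPM in shCTR and 12100 and 12151 TPM in shE3, which overlap. After the same rescaling 14 were higher and 11 lower (all genes 14.2 and 13.9 percent). Shares over all genes are not printed for fits with a library left out, here or in the comparisons below. The counts rest on single libraries: 1 member was called lower without shE3 replicate 1, 3 without shE3 replicate 2, and 14 were called higher without shCTR replicate 2.

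The 8 called lower come from 4 complexes. Atp5j2, subunit f of the membrane part of ATP synthase, went from 15.6 and 18.1 TPM in shCTR to 9.35 and 9.76 TPM in shE3 (log2 -0.76 ± 0.13, adjusted p = 0.00199). Atp5j, coupling factor 6 in the stalk, went from 87.1 and 98.4 TPM to 64.8 and 62.2 TPM (log2 -0.54 ± 0.10), and Uqcrb of complex III from 116 and 117 TPM to 81.7 and 84.7 TPM (log2 -0.48 ± 0.09). Neither gene had overlapping groups, and both calls were lost without either shE3 library. Ndufb3 (log2 -0.44 ± 0.12) and Cox5b (log2 -0.44 ± 0.11) lost their calls without shCTR replicate 1 or either shE3 library, and Ndufa4 (log2 -0.39 ± 0.10) without either shE3 library. Cox6c, with 399 and 453 TPM against 349 and 329 TPM, and Atp5e, with 119 and 130 TPM against 94.6 and 103 TPM, were the others. The abundant Atp5b read 773 and 862 TPM in shCTR and 895 and 881 TPM in shE3 and was not called as deposited. The members called lower have a median transcript length of 674 bases, against 782 bases for those not called, and over the 79 members the change and the length had a Spearman correlation of 0.37. Macrophage markers (6 genes) summed to 138 and 168 TPM in shCTR and 355 and 350 TPM in shE3, and XEN-like and epithelial markers to 361 and 401 TPM against 122 and 120 TPM; their part in these results was not tested. Of mitochondrially encoded mRNAs, 0 were higher and 4 lower of 11 tested, led by mt-Nd3 with a change of -0.74 ± 0.11 on the log2 scale. In each of these libraries 2 or 3 of the 13 such mRNAs were listed at 0. Among 47 assembly factors 2 were higher and 2 lower, of which Cox17, a copper chaperone for complex IV, fell by 0.55 on the log2 scale.

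Under actinomycin D, the subunit RNAs took a larger share of the library at 4 h than at the start and a smaller one again at 8 h. The values are CPM, reads scaled to a fixed library total, so a rise after the block means a larger share of the RNA left. The summed members read 8053 and 10209 CPM in CD at 0 h, 13523 and 13922 at 4 h, and 10885 and 11045 at 8 h. In DMSO they read 10233 and 10636 CPM at 0 h, 13154 and 12966 at 4 h, and 11978 and 11469 at 8 h. Both 4 h libraries were above both 0 h libraries for 75 of 80 members in CD, beside 23.3 percent of all genes, and for 60 of 80 in DMSO, beside 15.6 percent. The median log2 difference of 4 h from 0 h over members was 0.59 in CD and 0.29 in DMSO, and over all genes -0.28 and -0.24.

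At 8 h against 0 h, DMSO cultures had 3 members called higher and 0 lower of 80 by limma, with 9 higher and 0 lower at an unadjusted p under 0.05, beside 3.73 percent of all genes higher and 27.2 percent lower. The members' median log2 change was 0.11 while that of all genes was -0.33. Set against the median gene, 43 were higher and 0 lower (all genes 17.0 and 13.4 percent). On recovered reads edgeR called 34 higher and DESeq2 49, with 0 lower in each. Both apply their own library scaling, so they differ from the CPM fit in scaling as well as in model. Scaling to the ERCC spike-ins gave 0 in either direction by limma. Shares over all genes are not printed for the edgeR, DESeq2 and ERCC fits, here or in the comparisons below. In DMSO, macrophage markers summed to 320 and 455 CPM at 0 h and 603 and 468 CPM at 8 h. XEN-like and epithelial markers summed to 1762.3 and 1362.5 CPM against 874 and 885 CPM, and their part was not tested. Without DMSO 0 h replicate 1 or DMSO 8 h replicate 1 the count of members higher was 0, and without DMSO 0 h replicate 2 it was 7. Cox8a, a small complex IV subunit, read 215 and 266 CPM at 0 h and 419 and 359 CPM at 8 h (log2 0.69 ± 0.16, adjusted p = 0.0123), a call lost without DMSO 0 h replicate 1 or DMSO 8 h replicate 1. Ndufb11 and Ndufa13 were the others, and each lost its call without 3 of the 4 libraries in turn.

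CD cultures at 8 h had 24 members called higher and 3 lower, beside 13.2 percent of all genes higher and 41.3 percent lower. The members' median was 0.18 and that of all genes -0.34, and relative to the median gene 54 were higher and 0 lower (all genes 24.7 and 29.4 percent). Scaled to the ERCC spike-ins, 6 were higher and 8 lower. From 0 to 8 h, macrophage markers went from 139 and 218 CPM to 504 and 537 CPM. Fibroblast markers went from 4040.6 and 3967.1 CPM to 4694.5 and 4692.5 CPM. XEN-like and epithelial markers went from 3895.6 and 2788.7 CPM to 1596.5 and 1573.1 CPM. The part of these shifts was not tested. Complex IV had 9 of its 14 tested members called higher and complex V 7 of 18, where Atp5o is counted under 2 identifiers. Atp5mpl, a small subunit of ATP synthase, read 49.1 and 68.3 CPM at 0 h and 106 and 111 CPM at 8 h (log2 0.89 ± 0.21), and Cox6c read 111 and 153 CPM against 231 and 223 CPM (log2 0.79 ± 0.19). The groups stood apart for both, and both calls were lost without CD 0 h replicate 1. Ndufa9, Ndufs3 and Ndufs6 of complex I were called lower as deposited, with Ndufa9 at 58.3 and 53.5 CPM against 38.3 and 34.5 CPM (log2 -0.61 ± 0.15), but were not called relative to the median gene. The count higher was 5 without CD 0 h replicate 1, 39 without CD 0 h replicate 2, 11 without CD 8 h replicate 1 and 7 without CD 8 h replicate 2, and without CD 8 h replicate 2 the count lower was 1. In the same libraries 14 of 15 mitochondrial biogenesis regulators were lower at 8 h in CD and 12 of 15 in DMSO (12 and 6 relative to the median gene), among them Nrf1 in DMSO with 18.8 ± 5.48 CPM at 0 h and 4.78 ± 2.43 CPM at 8 h (SD, n = 2).

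**Figure D2:**
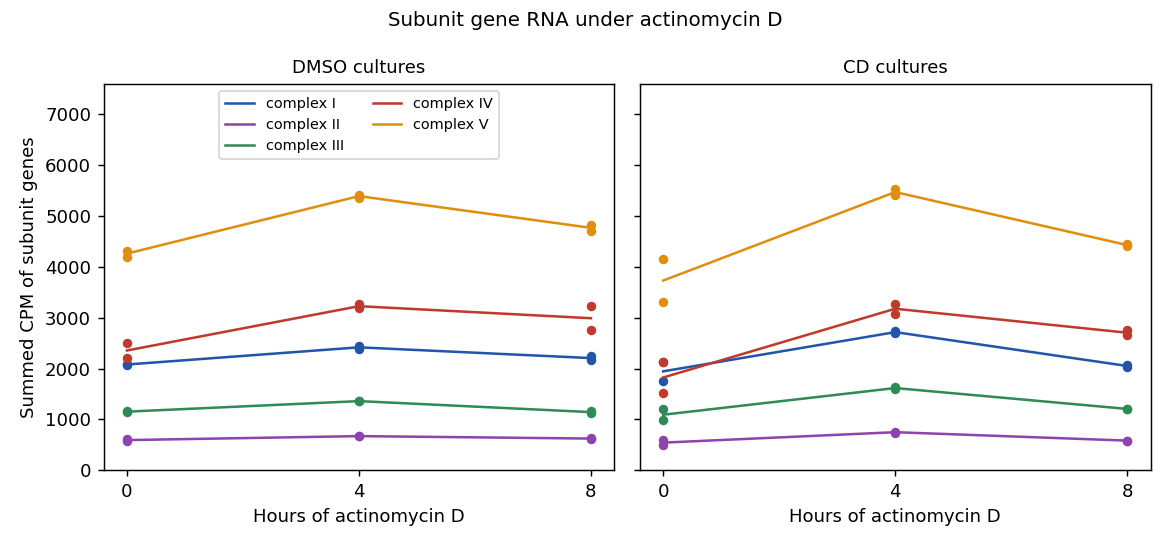
Summed CPM of the subunit genes of each complex (vertical axis) against hours of actinomycin D, for DMSO cultures (left) and CD cultures (right); points are libraries and lines join the means of 2. Each complex has its highest mean at 4 h, and the CD 0 h libraries differ most between replicates, with 8053 and 10209 CPM over all complexes.

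The difference in decay between CD and DMSO was not called for any member. limma called 0 higher and 0 lower of 80, beside 0.00586 percent of all genes higher and 0.0 percent lower, with 4 higher and 0 lower at an unadjusted p under 0.05. edgeR and DESeq2 also called 0 in each direction, with 3 and 2 higher and 0 and 2 lower at an unadjusted p under 0.05. Without CD 0 h replicate 2, limma called 3 members higher. Before actinomycin D, CD had 0 members higher and 3 lower than DMSO by limma, with 1 higher and 18 lower at an unadjusted p under 0.05, beside 8.22 percent of all genes higher and 6.41 percent lower; edgeR and DESeq2 called 6 and 13 lower and 0 higher. The members' median was -0.15 and that of all genes 0.19, and relative to the median gene 0 were higher and 5 lower (all genes 6.77 and 9.27 percent). Ndufa1, a small subunit of complex I, read 46.9 and 48.3 CPM in DMSO and 25.3 and 36.8 CPM in CD (log2 -0.62 ± 0.17, adjusted p = 0.0398), and Uqcr10 and Atp5h were the others called. The count lower was 0 without CD 0 h replicate 1 or DMSO 0 h replicate 2, 11 without DMSO 0 h replicate 1 and 31 without CD 0 h replicate 2, so it rests on which 0 h libraries are kept. At 0 h, macrophage markers summed to 139 and 218 CPM in CD and 320 and 455 CPM in DMSO. Fibroblast markers summed to 4040.6 and 3967.1 CPM against 5481.4 and 5157.4 CPM. XEN-like and epithelial markers summed to 3895.6 and 2788.7 CPM against 1762.3 and 1362.5 CPM. The part of these markers was not tested. This direction is opposite to that of the TPM table of CD and DMSO cultures, and the labels do not give the day of reprogramming of either; the difference between the tables was not tested.

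Against fibroblasts, the subunit genes were called higher in a share near that of all genes in DMSO iPSC and R1 ESC and above it in CD iPSC. In each line they were called lower in a smaller share than all genes. In DMSO iPSC, CD iPSC and R1 ESC the counts called higher were 5, 15 and 11 of 36 in complex I, 4, 4 and 4 of 8 in complex III, 8, 10 and 9 of 17 in complex IV and 5, 8 and 9 of 17 in complex V. The summed members read 13163 and 14949 TPM in MEF, 15833 and 17746 in DMSO iPSC, 21768 and 18702 in CD iPSC and 17900 and 18754 in R1 ESC, so every pluripotent library was above both MEF libraries. The comparisons with MEF share the same 2 MEF libraries, so each is given on its own. Where a library is left out, whether a changed count is particular to the members was not tested. DMSO iPSC had 23 of 82 members called higher and 8 lower, beside 31.4 percent of all genes higher and 36.2 percent lower, with a member median of 0.20 against -0.01 for all genes. After rescaling to the median gene it had 29 higher and 7 lower (all genes 34.6 and 33.8 percent). CD iPSC had 39 higher and 4 lower, beside 33.3 and 35.4 percent, with medians of 0.41 and 0.02. After rescaling it had 48 higher and 4 lower (all genes 35.3 and 34.1 percent). R1 ESC had 34 higher and 8 lower, beside 36.2 and 32.9 percent, with medians of 0.23 and 0.11, and relative to the median gene 31 higher and 9 lower (all genes 35.1 and 33.8 percent). The count higher in CD iPSC was 24 without MEF replicate 1, the count lower was 12 without CD iPSC replicate 1, and the count lower in R1 ESC was 3 without MEF replicate 2 and 4 without R1 ESC replicate 1.

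Of the abundant subunits some were higher and others were not called or were lower. Cox4i1, with 568 and 657 TPM in MEF, was not called in any line (549 to 780 TPM). Cox6a1, with 470 and 573 TPM in MEF, was lower in DMSO iPSC (317 and 372 TPM, log2 -0.60 ± 0.13) and not called in CD iPSC or R1 ESC. Uqcrc1 read 229 and 225 TPM in MEF, 348 and 356 in DMSO iPSC, 605 and 572 in CD iPSC and 470 and 498 in R1 ESC, with log2 changes of 0.63 ± 0.09, 1.37 ± 0.09 and 1.09 ± 0.09. Atp5b, the catalytic beta subunit of ATP synthase, read 863 and 914 TPM in MEF, 1308 and 1317 in DMSO iPSC, 1969.6 and 1793 in CD iPSC and 1641 and 1779 in R1 ESC (log2 0.56 ± 0.11, 1.08 ± 0.11 and 0.94 ± 0.11). Cox7c read 288 and 330 TPM in MEF and 588 to 827 TPM in the pluripotent libraries (log2 1.15, 1.399 and 1.22, each ± 0.16). For Uqcrc1, Atp5b and Cox7c the MEF libraries were below all 6 pluripotent libraries. Sdhd was higher in all 3 lines (log2 0.62 ± 0.11, 0.88 ± 0.11 and 0.52 ± 0.11), while Sdhb, the iron-sulphur subunit of complex II, was lower in DMSO iPSC, with 109 and 108 TPM against 171 and 169 TPM in MEF (log2 -0.65 ± 0.10), and was not called in the other lines.

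**Figure D3:**
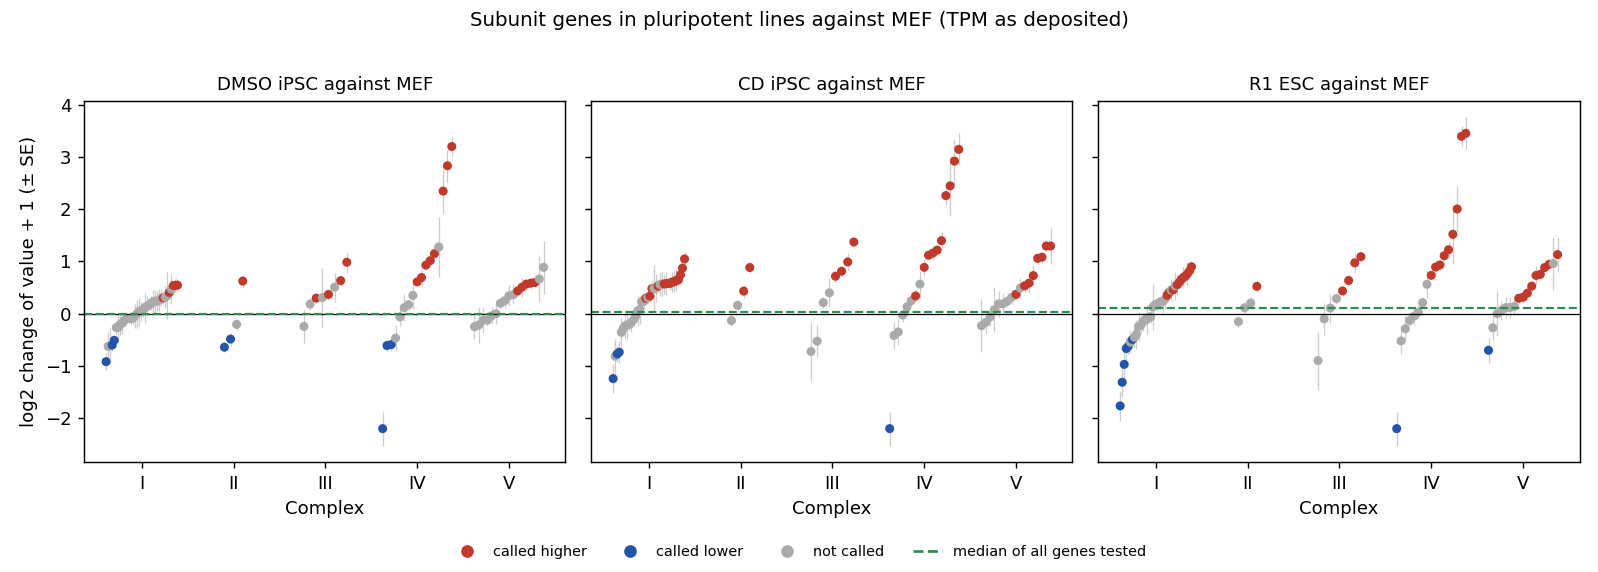
Log2 change of TPM + 1 against MEF (vertical axis) for each tested subunit gene, sorted within complexes I to V, for DMSO iPSC, CD iPSC and R1 ESC; bars are the SE and the dashed line is the median of all genes tested. The points highest in each panel are alternative complex IV subunits, and Cox6a2, listed at 0 in the lines, is the lowest.

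Complex I moved in both directions. Ndufab1, the acyl carrier protein that is also a complex I subunit, was higher in CD iPSC (log2 1.05 ± 0.13) and R1 ESC (0.82 ± 0.13), and Ndufs1, the largest core subunit, read 82.2 and 82.8 TPM in MEF and 154 and 155 TPM in R1 ESC (log2 0.90 ± 0.08). Ndufs5, an accessory subunit, read 69.3 and 81.7 TPM in MEF but 20.7 and 22.0 TPM in R1 ESC (log2 -1.77 ± 0.28, adjusted p = 0.00102), while the 4 iPSC libraries held 55.9 to 108 TPM. Ndufa13, also known as GRIM-19, was lower in DMSO iPSC (log2 -0.92 ± 0.16), CD iPSC (-0.78 ± 0.16) and R1 ESC (-0.63 ± 0.16), with 58.0 and 68.5 TPM in MEF and 31.6 to 42.6 TPM in the pluripotent libraries. Ndufa2, with 138 and 192 TPM in MEF, was lower in CD iPSC (log2 -1.25 ± 0.28) and R1 ESC (-1.32 ± 0.28), and both calls were lost without MEF replicate 2. Of the 7 core subunits listed, 3, 4 and 4 were called higher in DMSO iPSC, CD iPSC and R1 ESC, and 1, 0 and 0 lower by limma.

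The largest changes against MEF were in alternative complex IV subunits. Cox6b2, known as the testis form of subunit VIb, read 6.70 and 5.78 TPM in MEF, 52.4 and 48.8 in DMSO iPSC, 92.4 and 43.0 in CD iPSC and 76.0 and 80.9 in R1 ESC, with log2 changes of 2.84 ± 0.31, 3.15 ± 0.31 and 3.46 ± 0.31. It made up 1.97 to 2.71 percent of the summed Cox6b1 and Cox6b2 TPM in MEF and 20.4 to 31.8 percent in the pluripotent libraries. Cox7a1 read 2.46 and 0.87 TPM in MEF, 11.1 and 12.9 in DMSO iPSC, 28.8 and 11.5 in CD iPSC and 8.93 and 9.53 in R1 ESC (log2 2.35 ± 0.43, 2.92 ± 0.43 and 2.01 ± 0.43), the last call being lost without MEF replicate 2. Its usual partner form Cox7a2 was far more abundant and was also higher in the lines. It read 177 and 175 TPM in MEF and 269 to 388 TPM in the pluripotent libraries (log2 0.73 ± 0.08 in R1 ESC). Striated muscle markers summed to 63.1 and 61.3 TPM in MEF and 19.7 to 49.7 TPM in the pluripotent libraries, below MEF. Of these 11 markers, 6 and 7 were listed at 0 in the MEF libraries and 4 to 7 in the pluripotent libraries. The part of muscle-type cells in these Cox7a1 changes was not tested.

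Cox7b2, a testis form, was listed at 0 in both MEF libraries and read 7.13 and 9.45 TPM in DMSO iPSC, 3.86 and 3.74 in CD iPSC and 8.89 and 10.3 in R1 ESC, and was called higher in all 3 lines. Cox8c, also a testis form, was listed at 0 in MEF and read 6.17 and 3.16 TPM in CD iPSC, 3.24 and 0.94 in R1 ESC and 0.424 and 3.13 in DMSO iPSC; it was called in CD iPSC and R1 ESC, both calls were lost without MEF replicate 1 or replicate 2, and the R1 ESC call also without R1 ESC replicate 1 and relative to the median gene. Cox6a2, the muscle form of subunit VIa, read 5.71 and 2.18 TPM in MEF and was listed at 0 in all 6 pluripotent libraries. In the reprogramming tables, normalised apart, Cox6b2 read 42.0 to 67.2 TPM in every library, 15.03 to 25.6 percent of the Cox6b1 and Cox6b2 sum. Some of these libraries lie below the 43.0 to 92.4 TPM and the shares of the pluripotent libraries, among them all 4 libraries of the shE3 table by share, and levels across tables were not tested. Outside the rule, Cyct, the testis cytochrome c, was listed at 0 in MEF and read 30.4 ± 1.24 TPM in DMSO iPSC and 20.7 ± 7.61 TPM in CD iPSC (SD, n = 2).

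**Figure D4:**
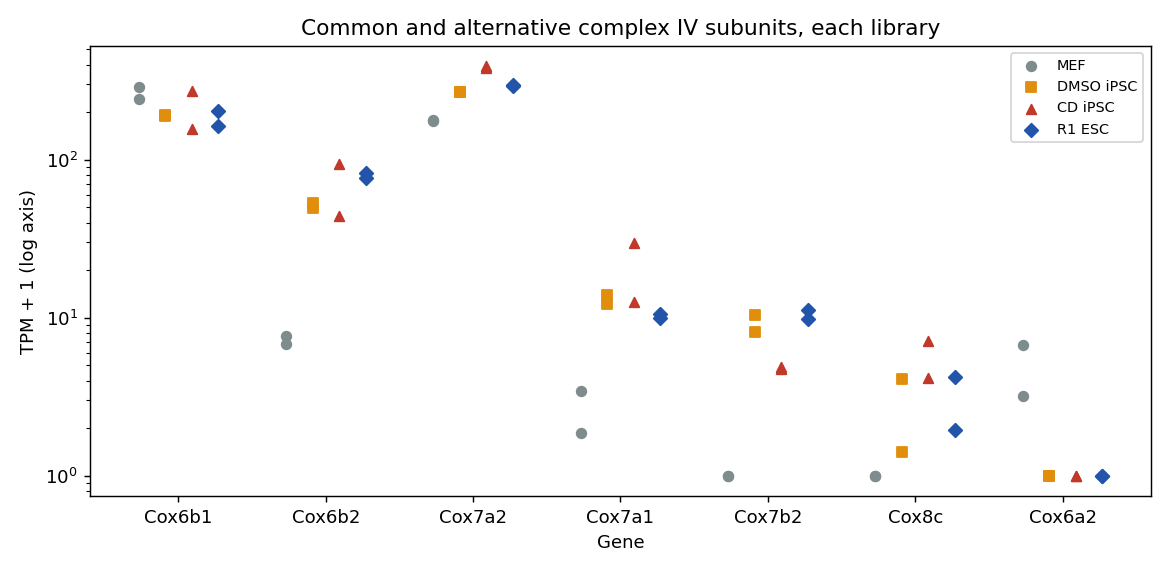
TPM + 1 on a log axis for common and alternative complex IV subunits, each point a library, in MEF, DMSO iPSC, CD iPSC and R1 ESC. MEF points lie lowest for the common form Cox7a2 and for Cox6b2, Cox7a1, Cox7b2 and Cox8c, and highest for Cox6a2.

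Between the lines, 24 subunit genes were higher in CD iPSC than in DMSO iPSC, a share above that of all genes as deposited and close to it relative to the median gene. Of 82 members, 24 were called higher and 1 lower, beside 20.0 percent of all genes higher and 18.5 percent lower, with a member median of 0.25 against 0.00 for all genes, and relative to the median gene 18 were higher and 2 lower (all genes 17.9 and 20.7 percent). The count higher was 12 without DMSO iPSC replicate 1 and 12 without DMSO iPSC replicate 2, and the count lower was 8 without CD iPSC replicate 1. Sdhc, a membrane anchor of complex II, read 48.1 and 49.4 TPM in DMSO iPSC and 89.5 and 97.0 TPM in CD iPSC (log2 0.92 ± 0.12, adjusted p = 0.00177). Cox7a2l, a factor known to join complexes III and IV in supercomplexes, read 142 and 147 TPM against 289 and 272 TPM (log2 0.95 ± 0.11). Uqcrc1 and Atp5a1, the alpha subunit of ATP synthase, rose by 0.74 ± 0.09 and 0.70 ± 0.09. No library of one line overlapped the other for these genes. Atp5s, factor B of ATP synthase, read 5.88 and 6.79 TPM against 16.2 and 24.6 TPM (log2 1.52 ± 0.34), a call lost without CD iPSC replicate 2 or either DMSO iPSC library, and Atp5b (0.52 ± 0.11) lost its call without either DMSO iPSC library. Cox7b2 was the member called lower (log2 -0.94 ± 0.19).

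The mitochondrially encoded mRNAs went the other way in that comparison. Mitochondrially encoded RNA took 17.4 and 16.2 percent of TPM in DMSO iPSC and 8.87 and 14.0 percent in CD iPSC, whose replicates differed widely. Counts for this list with a library left out were not made. Of 13 tested, 0 were called higher and 6 lower by limma in both scalings. mt-Cytb, the cytochrome b of complex III, read 12827 ± 608 TPM in DMSO iPSC and 3137 ± 555 TPM in CD iPSC (SD, n = 2; log2 -2.04 ± 0.19), and mt-Nd1 of complex I changed by -2.11 ± 0.21. Against MEF, 9 of the 13 were higher and 0 lower in DMSO iPSC, 1 higher and 2 lower in CD iPSC, and 4 higher and 0 lower in R1 ESC. Twnk, the helicase that unwinds mitochondrial DNA, read 29.5 ± 2.50 TPM in DMSO iPSC and 6.54 ± 1.83 TPM in CD iPSC (log2 -2.03 ± 0.18), and Fh1, fumarase of the TCA cycle, read 64.3 ± 2.63 and 125 ± 1.48 TPM (log2 0.95 ± 0.10). Over all genes 20.0 percent were called higher and 18.5 percent lower as deposited. Of the biogenesis regulators 2 were higher and 3 lower of 14. Of the assembly factors 11 were higher and 9 lower of 48, shares near those of all genes. Of the TCA cycle enzymes 4 were higher and 0 lower of 17.

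Against MEF, the TCA cycle enzymes showed 4, 9 and 8 of 17 called higher in DMSO iPSC, CD iPSC and R1 ESC and 2, 1 and 1 lower, and the biogenesis regulators 8 of 14 higher in each line and 0, 2 and 0 lower by limma. Over all genes 31.4, 33.3 and 36.2 percent were higher and 36.2, 35.4 and 32.9 percent lower. The TCA cycle share called higher was below that of all genes in DMSO iPSC and above it in CD iPSC and R1 ESC. The share of biogenesis regulators called higher was above that of all genes in each line. Suclg2, a succinyl-CoA ligase subunit, read 22.5 ± 0.71 TPM in MEF, 53.8 ± 1.87 in DMSO iPSC, 86.2 ± 10.2 in CD iPSC and 80.6 ± 0.36 in R1 ESC (SD, n = 2). Tfam read 17.1 ± 0.65 TPM in MEF, 44.9 ± 9.71 in CD iPSC and 64.0 ± 1.48 in R1 ESC. Of 48 assembly factors 16, 16 and 15 were higher, a share near that of all genes, and 9, 10 and 6 lower. Macrophage markers summed to 1051.8 and 1265.7 TPM in MEF and 38.6 to 92.5 TPM in the pluripotent libraries, and their part in the comparisons with MEF was not tested.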

How the data were processed

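RNA-seq tables of 32 libraries were used. Per the submitters' processing notes, reads were handled on mm10 by StringTie 2.0, HISAT2 2.1.0 and fastp 0.20.1, whose options the sources used here do not give. The authors deposited TPM in 4 of the tables, for which the depth is unknown. The table of actinomycin D names no unit; its deposited signal equals CPM, and dividing by the step of 1 read in each library gave whole reads for 100 percent of the values checked, within a relative tolerance of 0.001. On those reads edgeR called 4633 genes higher and 4641 lower at 8 h in CD, and DESeq2 4192 and 4896.

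The test was limma 3.58.1 (R 4.3.3; moderated, with a trend, 2-sided) of log2(value + 1) for genes reaching 1 in 2 or more libraries, and a call is a Benjamini-Hochberg adjusted p under 0.05 across the whole table; a fold change on this scale understates the change of low genes. The actinomycin D and iPSC tables were each fitted whole, so groups share 1 estimate of the spread. Alternatives were rescaling by the median ratio (relative to the median gene), removal of mitochondrially encoded genes, a pseudocount of 0.1, a filter at 5 or none, a replicate block, each library left out, and, on recovered reads, edgeR 4.0.16, DESeq2 1.42.0 and ERCC scaling. The tests were run on simulated data first. Figures used Python 3.11.15 and matplotlib 3.10.9.

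Per comparison and complex, the genes to name were up to 2 called rises and falls, the member with the highest mean, members called against the majority, and the alternative subunits that passed the filter; lists outside the rule have up to 2 examples by smallest p. Not every gene so chosen is printed, 1 is not reported here, and some members and examples were named after their values were seen. The members and lists were chosen with earlier results of these data known. Where a gene is listed at 0, the quantification was not tested.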

Additional observations from a re-analysis of the deposited data

How the results depend on the processing

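Counts below are members called by limma unless named. For fits with a library left out, the share of all genes called is not printed. Whether a changed count there is particular to the members was not tested. Relative to the median gene, the counts higher and lower were 39 and 10 in CD, 25 and 12 in Rxra OE, 14 higher in shE3, 5 lower in CD at 0 h, 43 higher in DMSO at 8 h, 54 higher and 0 lower in CD at 8 h, and 2 lower in CD iPSC against DMSO iPSC. Without mitochondrially encoded genes, 3 were lower in CD, 1 in Rxra OE, 5 in CD at 0 h and 2 in CD iPSC against DMSO iPSC. With a filter at 5, 1 was higher in shE3, and 5 were lower both in CD at 0 h and in CD at 8 h. With no filter, 0 were lower in shE3 and in CD at 0 h, 0 higher in DMSO at 8 h, 3 higher in CD at 8 h, 5 lower in R1 ESC and 13 higher in CD iPSC against DMSO iPSC. On recovered reads, edgeR and DESeq2 called 6 and 13 lower in CD at 0 h, 34 and 49 higher in DMSO at 8 h, and 58 and 54 higher and 0 and 0 lower in CD at 8 h. Scaled to ERCC, 0 were lower in CD at 0 h, 0 higher in DMSO at 8 h, and 6 higher and 8 lower in CD at 8 h. The cause was not tested.

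Leaving out each library gave ranges higher and lower of 48 to 64 and 0 to 1 in CD, 65 to 78 and 0 to 0 in Rxra OE, 0 to 14 and 1 to 11 in shE3, 0 to 0 and 0 to 31 in CD at 0 h, 0 to 7 and 0 to 1 in DMSO at 8 h, 5 to 39 and 1 to 4 in CD at 8 h, 0 to 3 and 0 to 0 in the difference in decay, 17 to 22 and 7 to 8 in DMSO iPSC, 24 to 46 and 3 to 12 in CD iPSC, 23 to 28 and 3 to 7 in R1 ESC, and 12 to 23 and 1 to 8 in CD iPSC against DMSO iPSC; a lone library was assumed to vary like the others. Deviations of same-numbered libraries had correlations of -0.106 in the CD, -0.137 in the Rxra OE and 0.0752 in the shE3 table, from -0.125 to 0.059 in the table of pluripotent lines and from -0.695 to 0.545 over the pairs of groups in the actinomycin D table, so they showed no pairing that held throughout a table. With a replicate block, 66 were higher in CD, 74 in Rxra OE, 8 lower in shE3 and 0 lower in CD at 0 h, and no other count moved by over 1.5 times. With crossed pairs, chosen after seeing the data, 58 were higher and 1 lower in CD and 76 and 0 in Rxra OE.

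Log2 changes with the opposite sign were as follows. Relative to the median gene, Cox4i1 (-0.036), Atp5b (-0.048) and Cox6b2 (-0.19) in CD; Ndufa7 (-0.0031), Cox4i1 (-0.17), Atp5b (-0.021) and Cox6b2 (-0.41) in Rxra OE; Uqcrc1 in CD at 0 h (-0.10) and DMSO at 8 h (0.20); and Sdha (0.33) and Cox7a1 (0.069) in CD at 8 h. Without mitochondrially encoded genes, Cox6b2 in CD (-0.085), Cox7a2 in shE3 (-0.016), Sdha (0.026) in CD at 8 h, and Ndufa4 in CD iPSC against DMSO iPSC (-0.014). Scaled to ERCC, Sdha (0.11) in CD at 0 h, Sdha (-0.14) in DMSO at 8 h, and Uqcrc1 in CD at 8 h (-0.32). By edgeR and DESeq2, Uqcrc1 in CD at 0 h (-0.14 and -0.11) and DMSO at 8 h (0.15 and 0.20), and in CD at 8 h Sdha (0.39 and 0.33) and Cox7a1 (0.21 and 0.15). With a library left out, Cox6b2 ranged from -0.035 to 0.064 in CD, Uqcrh from -0.29 to 0.037 and Cox7a2 from -0.058 to 0.13 in shE3, and Uqcrc1 from -0.023 to 0.14 and Cox6b2 from -0.77 to 0.081 in CD at 0 h. In CD at 8 h, Sdha ranged from -0.13 to 0.0505, Uqcrc1 from -0.055 to 0.090 and Cox7a1 from -0.25 to 0.0402, and in CD iPSC against DMSO iPSC Cox7a1 from -0.051 to 1.199 and Cox6b2 from -0.23 to 0.86. Over 163 results for single genes, alternatives that kept every library left 978 values on the same side of the threshold, 74 lost their call, 36 gained one and 26 changed sign.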

Other observations

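The subunit genes are short, with a median transcript length of 725 bases against 2314 bases for all genes with a protein-coding transcript. Within groups, the difference between replicate 1 and replicate 2 followed length across the members in several groups. Over 80 members the Spearman correlation was 0.63 in CD 4 h, 0.59 in CD 0 h and -0.60 in DMSO 8 h, over 79 members 0.53 in CTR, and over 82 members -0.47 in CD iPSC and 0.41 in DMSO iPSC; genes are not independent replicates and share their libraries. The change between CD iPSC and DMSO iPSC had a correlation of 0.39 with length over 82 members, and the change of CD 8 h from CD 0 h of -0.34 over 80. The part of length in the results was not tested.

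Atp5o is listed under 2 overlapping identifiers, at chr16:91925214-91931687 and chr16:91684398-91926982 (GRCm38, both minus strand). The second was listed at 0 in every library of the 4 TPM tables and held 67.5 to 130 CPM in the actinomycin D table, close to the 75.7 to 147 CPM of the first, so the values of this gene are uncertain. The counts over 80 members and the summed CPM of the actinomycin D table include Atp5o under both identifiers.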
